A study of Homo sapiens with 24 samples.

Results

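The EGF receptor family and its ligands were described here as 10 genes, the receptors EGFR, ERBB2, ERBB3 and ERBB4 and the ligands HBEGF, AREG, EREG, TGFA, BTC and NRG1, in 2 human renal cell carcinoma lines given dasatinib. Members were found by name in the annotation of the Affymetrix PrimeView array, and each gene was read from the probe set with the highest mean over all 24 arrays among those that name that gene alone. A probe set is a group of short probes read together as 1 value. Of the 10 genes, 9 had such a probe set, out of 18132 genes in all, and the 9 genes had 39 probe sets between them, 19 for receptors and 20 for ligands. AREG was not analysed here. Caki-1 cells were kept for 6, 12 or 24 h in 1 µM dasatinib, a drug that blocks ABL and the kinases of the SRC family, or were given its vehicle DMSO, and 769-P cells were treated in the same way. Each of the 8 groups held 3 arrays, which the labels call biological replicates without saying how the cultures were separated, so p-values measure the spread between these arrays. The DMSO arrays carry no time, so the 3 comparisons of a line with DMSO share its control arrays, and hours of drug cannot be told apart from hours in culture. Both are established carcinoma lines grown in culture.

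The 4 receptors are tyrosine kinases of the cell surface that signal as pairs after a ligand binds. EGFR binds the EGF-like ligands, ERBB2 has no known ligand of its own and acts as a partner, ERBB3 has very weak kinase activity and couples its partners to PI3-kinase, and ERBB4 has an active kinase and binds neuregulins as well as some EGF-like ligands. The ligands are made as membrane-bound precursors that proteases of the ADAM family cut free, after which they act on the same or on neighbouring cells. In the kidney tubule EGF itself is abundant, and EGFR and TGFA are known for high expression in renal cell carcinoma.

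The bases before the start sites of 4 ligand genes are shown because their signals moved in opposite directions in 769-P at 12 h of dasatinib, with HBEGF, TGFA and EREG lower and BTC higher. They are the 250 bases before the RefSeq gene start on GRCh38.p14, written 5′ to 3′ on the strand of the gene, at chr5:140346604-140346853 (minus strand) for HBEGF, chr2:70553827-70554076 (minus strand) for the first of TGFA's start sites, chr4:74364895-74365144 (plus strand) for EREG and chr4:74794524-74794773 (minus strand) for BTC. Capitals mark matches, on either strand, to the motifs searched.
HBEGF: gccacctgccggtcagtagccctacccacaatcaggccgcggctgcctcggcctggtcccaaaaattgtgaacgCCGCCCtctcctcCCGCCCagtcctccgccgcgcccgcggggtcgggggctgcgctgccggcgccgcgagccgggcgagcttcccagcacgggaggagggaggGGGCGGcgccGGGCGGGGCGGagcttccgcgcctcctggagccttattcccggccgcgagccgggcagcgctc
TGFA: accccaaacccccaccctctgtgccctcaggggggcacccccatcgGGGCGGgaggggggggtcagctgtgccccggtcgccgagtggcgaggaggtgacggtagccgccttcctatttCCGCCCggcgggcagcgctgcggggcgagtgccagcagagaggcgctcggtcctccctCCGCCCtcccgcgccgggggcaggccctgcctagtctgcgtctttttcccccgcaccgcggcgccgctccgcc
EREG: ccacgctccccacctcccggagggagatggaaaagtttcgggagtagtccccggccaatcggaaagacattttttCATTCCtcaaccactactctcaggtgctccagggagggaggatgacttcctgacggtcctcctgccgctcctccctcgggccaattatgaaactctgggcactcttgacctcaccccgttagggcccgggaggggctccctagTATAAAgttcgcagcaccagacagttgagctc
BTC: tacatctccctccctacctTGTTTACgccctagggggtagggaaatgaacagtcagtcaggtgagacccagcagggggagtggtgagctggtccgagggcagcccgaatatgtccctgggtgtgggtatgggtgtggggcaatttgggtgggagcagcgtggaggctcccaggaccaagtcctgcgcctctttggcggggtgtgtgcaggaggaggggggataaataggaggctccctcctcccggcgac
HBEGF held 5 matches to the SP1 motif GGGCGG, the nearest starting 58 bases before the gene start and overlapping its neighbour, and TGFA held 3, the nearest starting 73 bases before. EREG held 1 match to the TATA motif TATAAA, starting 32 bases before the gene start, and 1 to the TEAD motif GGAATG. BTC held 1 match to the forkhead motif TGTTTAC, starting 231 bases before the gene start. Of 35116 promoter windows of the same length, 42.6% held the SP1 motif, 10.7% the TATA motif, 11.9% the TEAD motif and 2.98% the forkhead motif. No match to the AP-1 motif TGANTCA, the CRE motif TGACGTCA or the ETS motif CCGGAA lay in the 4 windows shown, and 6.57%, 1.65% and 14.5% of all windows held them. A match is a description of the letters only.

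On the deposited log2 scale, array medians lay between 6.007 and 6.082, and across probe sets the correlation of 2 arrays of a group was 0.9928 to 0.9975. The number of arrays limits the precision. All 9 of the renal epithelial carcinoma markers with a probe set passed the level filter in both lines, among them PAX8, KRT18 and VIM. Of the markers of other cell types, 2 of 4 leukocyte, 2 of 4 endothelial and 3 of 5 fibroblast genes passed it in Caki-1, and 1 of 4, 3 of 4 and 1 of 5 in 769-P, while PTPRC, CDH5, COL3A1 and COL1A2 lay below it in both lines. The log2 of the summed signal of the fibroblast list lay between 8.77 and 8.91 in Caki-1 after 24 h of dasatinib, against 8.02 to 8.05 with DMSO, and that of the endothelial list between 7.74 and 8.07, against 7.29 to 7.38. In 769-P the fibroblast sum lay between 7.35 and 7.48 at 24 h, against 7.33 to 7.54 with DMSO, and the endothelial sum between 7.46 and 7.55, against 7.33 to 7.42. The leukocyte sum lay between 6.73 and 6.87 in Caki-1 at 24 h, against 7.05 to 7.19 with DMSO, and between 6.31 and 6.63 in 769-P, against 6.39 to 6.55. The part of these genes in the members' changes was not tested.

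In both lines NRG1 and HBEGF fell at each time of dasatinib, while ERBB3 rose at 12 and 24 h. A gene was tested in a line if its mean there lay above the 40th percentile of the probe-set means (5.379 for Caki-1, 5.361 for 769-P), and called if its adjusted p in limma was under 0.05; "rose" and "fell" are used of called genes. The filter was passed by 8 of the 9 measured members in each line, and ERBB4 lay below it in both. At 6 h in Caki-1, 1 of 8 members rose and 3 fell, where 12.3% of all genes tested rose and 14.0% fell. At 12 h 1 member rose and 4 fell, beside 24.1% and 24.4% of all genes, and at 24 h again 1 rose and 4 fell, beside 32.9% and 29.9%. At 6 h in 769-P, 3 of 8 members rose and 4 fell, where the shares of all genes were 16.4% higher and 14.5% lower. At 12 h 3 rose and 4 fell, beside 24.9% and 22.6% of all genes, and at 24 h 3 rose and 3 fell, beside 31.1% and 24.6%. The median change of the tested members was -0.16, -0.35 and -0.28 in Caki-1 at 6, 12 and 24 h, where that of all genes was 0.01, 0.05 and 0.08, and it was -0.25, -0.21 and 0.01 in 769-P, where that of all genes was 0.02, 0.02 and 0.04. The Caki-1 count at 6 h rested on single arrays. It was 2, with BTC and HBEGF no longer called, without DMSO replicate 2, DMSO replicate 3 or 6 h replicate 1, and 3, with BTC no longer called, without any 1 of the other 3 arrays of that comparison. Of all 12423 genes tested, between 2385 and 3153 were called in these fits.

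**Figure D1:**
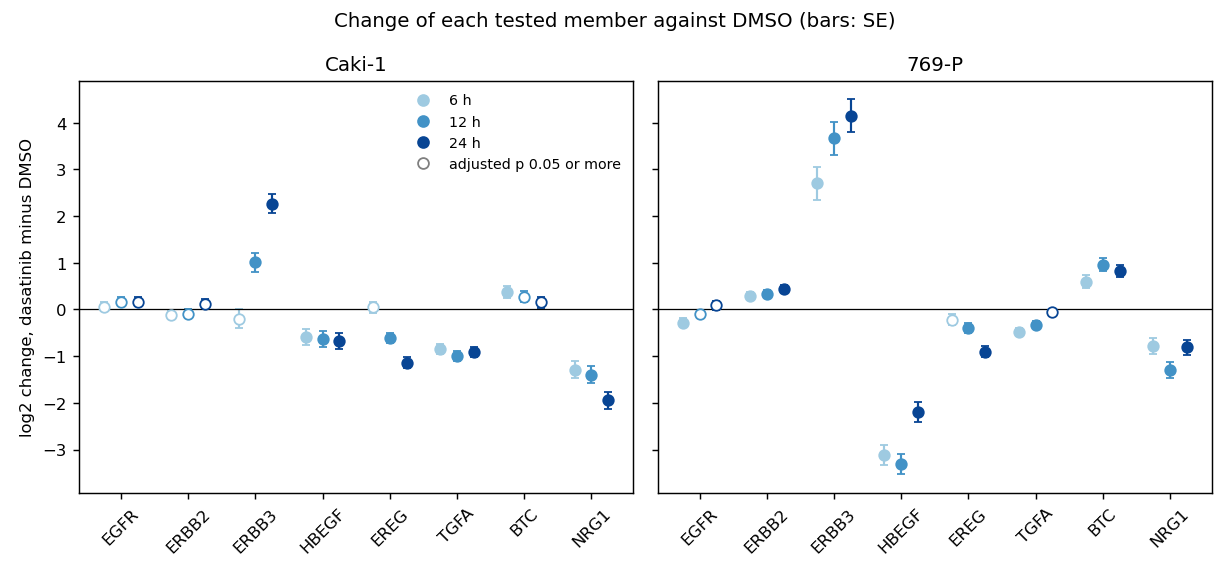
Log2 change of each tested member, dasatinib minus DMSO, in Caki-1 (left) and 769-P (right) at 6, 12 and 24 h (light to dark). Bars are the SE of the change with 3 arrays in each group, and open points had an adjusted p of 0.05 or more; ERBB3 in 769-P reaches 4.14 and HBEGF in 769-P goes down to -3.31.

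ERBB3, the receptor that pairs with its relatives to reach PI3-kinase, had the widest range of group means among the receptors and is placed on GRCh38.p14 at chromosome 12, 56080108 to 56103505. Its log2 signal in Caki-1 was 6.67, 7.10 and 7.13 with DMSO, 6.45, 6.97 and 6.88 at 6 h, 7.45, 8.28 and 8.20 at 12 h, and 8.98, 9.30 and 9.41 at 24 h of dasatinib. In 769-P it was 5.57, 6.58 and 7.14 with DMSO, 8.60, 9.40 and 9.39 at 6 h, 9.57, 10.29 and 10.42 at 12 h, and 9.94, 10.83 and 10.95 at 24 h. The 6 h arrays of Caki-1 overlapped the DMSO arrays, while its later arrays and all drug arrays of 769-P lay above every DMSO array of their line, and array 1 was the lowest in each of the 8 groups. In Caki-1 the change at 6 h, -0.20 ± 0.20 (SE, n = 3 arrays in each group, as for all changes below), was not called, and ERBB3 rose by 1.01 ± 0.20 at 12 h (2.02-fold) and by 2.27 ± 0.20 at 24 h (4.81-fold, adjusted p = 1.7e-07 in limma). In 769-P it rose by 2.70 ± 0.35 at 6 h (6.50-fold, adjusted p = 2.5e-05), 3.66 ± 0.35 at 12 h (12.7-fold) and 4.14 ± 0.35 at 24 h (17.7-fold, adjusted p = 6.3e-08). The suffix of this probe set's name, _x_at, means that some of its probes may also match other transcripts. The dimmer probe sets of ERBB3 also read higher in 769-P at every time, but by less, by 0.33, 0.64 and 1.22 for the second brightest and by 0.86, 1.49 and 1.93 for the third at 6, 12 and 24 h. In Caki-1 these gave -0.17, 0.11 and 0.48 for the second brightest and 0.19, 0.22 and 0.82 for the third, and with the second brightest in place of the first neither the 12 h rise in Caki-1 nor the 6 h rise in 769-P was called. The third was dim, with group means of 4.13 to 4.95 in Caki-1, all below the filter level of that line. In 769-P its group means were 4.35 with DMSO and 5.21, 5.84 and 6.27 at 6, 12 and 24 h.

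**Figure D2:**
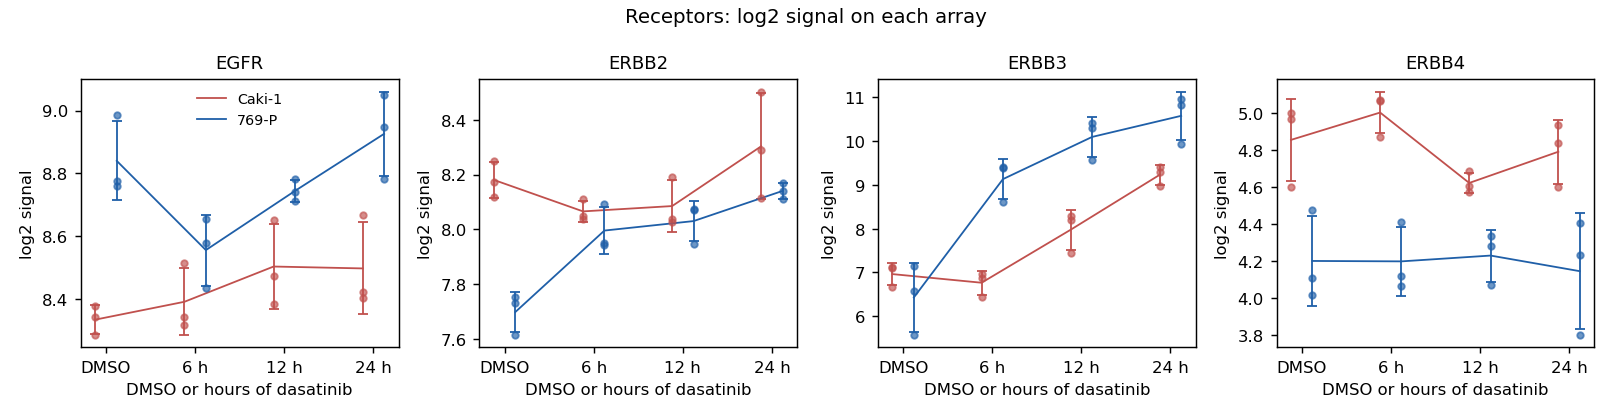
Log2 signal of the 4 receptors on each array (points), with the mean and SD of 3 arrays (line and bars), in Caki-1 (red) and 769-P (blue) with DMSO and at 6, 12 and 24 h of dasatinib. ERBB3 climbs in both lines, with group means up to 9.23 in Caki-1 and 10.57 in 769-P, and the group means of ERBB4 stay at or under 5.00; each panel has its own scale.

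EGFR, the receptor of the EGF-like ligands (chromosome 7, 55019017 to 55211628), changed little. In Caki-1 it read 8.34, 8.38 and 8.28 with DMSO, 8.51, 8.34 and 8.32 at 6 h, 8.65, 8.47 and 8.39 at 12 h, and 8.67, 8.42 and 8.40 at 24 h. The 12 and 24 h arrays lay just above the DMSO arrays, and none of the changes, 0.06, 0.17 and 0.16 (SE 0.10 each), was called. In 769-P it read 8.98, 8.76 and 8.78 with DMSO, 8.58, 8.66 and 8.43 at 6 h, 8.78, 8.74 and 8.71 at 12 h, and 9.05, 8.95 and 8.78 at 24 h. EGFR fell at 6 h in 769-P, by 0.28 ± 0.09 (adjusted p = 0.030), and the changes at 12 h (-0.10) and 24 h (0.09) were not called. The 6 h call was lost without 769-P DMSO replicate 1 (-0.21, adjusted p = 0.128), 6 h replicate 1 (-0.29, adjusted p = 0.0541) or 6 h replicate 3 (-0.22, adjusted p = 0.137). It was also lost with the mean of all EGFR probe sets (-0.15, adjusted p = 0.126), and kept with the second brightest (-0.39, adjusted p = 0.0174).

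ERBB2, the partner without a known ligand (chromosome 17, 39688094 to 39728658), rose in 769-P at each time. It read 7.61, 7.75 and 7.73 there with DMSO, 8.09, 7.95 and 7.94 at 6 h, 7.95, 8.07 and 8.07 at 12 h, and 8.14, 8.11 and 8.17 at 24 h. Every drug array lay above every DMSO array, and the rises were 0.30 ± 0.08 (adjusted p = 0.0130), 0.33 ± 0.08 (adjusted p = 0.00385) and 0.44 ± 0.08 (adjusted p = 2.9e-04). The 6 h call was lost without 769-P DMSO replicate 1 (0.26, adjusted p = 0.0510) or 6 h replicate 1 (0.25, adjusted p = 0.0583). In Caki-1 it read 8.25, 8.17 and 8.12 with DMSO, 8.11, 8.05 and 8.04 at 6 h, 8.04, 8.03 and 8.19 at 12 h, and 8.50, 8.29 and 8.12 at 24 h, and the changes of -0.11, -0.10 and 0.12 (SE 0.10 each) were not called. The other 4 probe sets of ERBB2 gave changes of 0.01 to 0.32 in 769-P over the 3 times, and with the second brightest (0.07, 0.18 and 0.11) none was called.

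ERBB4, the remaining receptor of neuregulins (chromosome 2, 211375717 to 212538802), lay under the level filter in both lines and was not tested. Its group means ran between 4.62 and 5.00 in Caki-1 and between 4.15 and 4.23 in 769-P, and every drug group overlapped the DMSO group of its line. All 3 of its probe sets were dim, with means over the 24 arrays of 4.50, 4.32 and 4.18.

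NRG1, neuregulin 1, which binds ERBB3 and ERBB4 (chromosome 8, 31639245 to 32774046), had the widest range of group means among the ligands and fell in both lines at every time. Its log2 signal in Caki-1 was 12.22, 11.97 and 11.87 with DMSO, 10.91, 10.71 and 10.57 at 6 h, 11.00, 10.46 and 10.40 at 12 h, and 10.53, 9.81 and 9.88 at 24 h. In 769-P it was 9.75, 9.34 and 9.11 with DMSO, 8.78, 8.71 and 8.35 at 6 h, 8.13, 8.19 and 7.998 at 12 h, and 8.95, 8.45 and 8.35 at 24 h. No drug array reached the lowest DMSO array of its line. In Caki-1 NRG1 fell by 1.29 ± 0.18 at 6 h (adjusted p = 9.5e-05), and the changes were -1.40 ± 0.18 at 12 h and -1.94 ± 0.18 at 24 h, 3.85-fold lower with dasatinib (adjusted p = 2.2e-07). In 769-P it fell by 0.78 ± 0.17 at 6 h (adjusted p = 0.00208), by 1.29 ± 0.17 at 12 h (adjusted p = 1.1e-05) and by 0.81 ± 0.17 at 24 h (adjusted p = 6.2e-04). All 8 NRG1 probe sets read lower than DMSO in Caki-1 at 24 h, with changes of -2.16 to -0.10, and all 8 read lower in 769-P at 6 h and at 24 h.

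HBEGF, heparin-binding EGF-like growth factor, a ligand of EGFR and ERBB4 (chromosome 5, 140332843 to 140346603), fell in both lines, and the arrays separated widely in 769-P. There it read 9.75, 9.50 and 8.94 with DMSO, 6.58, 6.09 and 6.18 at 6 h, 6.13, 6.35 and 5.78 at 12 h, and 7.58, 7.01 and 7.00 at 24 h. The mean was lowest at 12 h, with overlap between the 6 and 12 h arrays, while the 24 h arrays all lay above these, and no drug array overlapped the DMSO arrays. The falls were 8.67-fold at 6 h, 9.92-fold at 12 h (-3.31 ± 0.21, adjusted p = 6.8e-09) and 4.59-fold at 24 h (-2.20 ± 0.21, adjusted p = 2.4e-07). In Caki-1 HBEGF read 8.32, 8.92 and 9.16 with DMSO, 7.92, 8.37 and 8.35 at 6 h, 8.12, 8.17 and 8.21 at 12 h, and 8.34, 7.92 and 8.11 at 24 h. The lowest DMSO array overlapped the 6 and 24 h arrays but not the 12 h arrays, and HBEGF fell by 0.59 ± 0.18 (adjusted p = 0.0238), 0.63 ± 0.18 (adjusted p = 0.00837) and 0.68 ± 0.18 (adjusted p = 0.00404). The 6 h fall was not called without Caki-1 DMSO replicate 2 (-0.53, adjusted p = 0.0927), DMSO replicate 3 (-0.41, adjusted p = 0.134) or 6 h replicate 1 (-0.44, adjusted p = 0.101), and the 12 h fall was not called without DMSO replicate 3 (-0.45, adjusted p = 0.0550). The second HBEGF probe set lay under the filter and changed by -0.16, -0.35 and -0.10 in Caki-1 and by -1.44, -1.39 and -1.38 in 769-P.

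TGFA, transforming growth factor alpha, a ligand of EGFR (chromosome 2, 70447284 to 70553826), fell in Caki-1 at each time and in 769-P at 6 and 12 h. In Caki-1 it read 10.19, 10.02 and 10.08 with DMSO, 9.32, 9.30 and 9.12 at 6 h, 9.24, 9.06 and 8.99 at 12 h, and 9.45, 8.997 and 9.12 at 24 h. All its drug arrays lay below the DMSO arrays, and the falls were 0.85 ± 0.11 at 6 h (adjusted p = 4.3e-05), 0.99 ± 0.11 at 12 h (adjusted p = 2.8e-06) and 0.90 ± 0.11 at 24 h (adjusted p = 3.4e-06). In 769-P it read 10.43, 10.37 and 10.61 with DMSO, 9.92, 10.03 and 10.01 at 6 h, 10.04, 10.18 and 10.20 at 12 h, and 10.42, 10.34 and 10.46 at 24 h. TGFA fell there by 0.48 ± 0.08 at 6 h (adjusted p = 1.6e-04) and 0.33 ± 0.08 at 12 h (adjusted p = 0.00199), while the 24 h arrays overlapped the DMSO arrays and the change of -0.06 ± 0.08 was not called (adjusted p = 0.514). With the second brightest probe set the change at 6 h was not called in Caki-1 (-0.48, adjusted p = 0.0527), and in 769-P the changes at 6 h (-0.20) and 12 h (-0.32) were not called while that at 24 h was (-0.44, adjusted p = 0.0185).

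EREG, epiregulin, a ligand of EGFR and ERBB4 (chromosome 4, 74365145 to 74388749), was first called lower at 12 h in both lines, where HBEGF, TGFA and NRG1 were called lower at 6 h already. In Caki-1 it read 13.48, 13.43 and 13.50 with DMSO, 13.47, 13.62 and 13.46 at 6 h, 13.03, 12.77 and 12.78 at 12 h, and 12.69, 12.16 and 12.14 at 24 h. In 769-P it read 11.57, 11.80 and 11.64 with DMSO, 11.38, 11.50 and 11.48 at 6 h, 11.43, 11.16 and 11.23 at 12 h, and 10.98, 10.90 and 10.42 at 24 h. The 6 h arrays overlapped DMSO in Caki-1 and lay just below it in 769-P, and at 6 h neither change was called (0.04 ± 0.11, adjusted p = 0.839, and -0.22 ± 0.12, adjusted p = 0.186). In a limma fit of the compared groups alone, the 6 h change in 769-P was called (adjusted p = 0.0379). EREG then fell in Caki-1 by 0.61 ± 0.11 at 12 h (adjusted p = 3.9e-04), and at 24 h the change was -1.14 ± 0.11 (2.20-fold lower, adjusted p = 4.7e-07). In 769-P it fell by 0.40 ± 0.12 at 12 h (adjusted p = 0.0109) and by 0.90 ± 0.12 at 24 h (adjusted p = 6.9e-06). The 12 h call in 769-P was lost without DMSO replicate 2 (-0.33, adjusted p = 0.0567) or 12 h replicate 2 (-0.34, adjusted p = 0.0551). All 4 EREG probe sets read lower at 24 h in both lines, with changes of -1.61 to -1.14 in Caki-1 and -1.01 to -0.34 in 769-P. At 6 h all 4 read higher in Caki-1, by 0.04 to 0.78, and in 769-P 2 read higher and 2 lower. At 12 h all 4 read lower in Caki-1, while in 769-P again 2 read higher and 2 lower, between -0.40 and 0.20. The 12 h fall in 769-P was not called with the second brightest probe set (-0.07, adjusted p = 0.784) or with the mean of all 4 (-0.06, adjusted p = 0.635), nor that in Caki-1 with the second brightest (-0.34, adjusted p = 0.475).

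BTC, betacellulin, a ligand of EGFR and ERBB4 that lies on the same stretch of chromosome 4 as EREG (74744759 to 74794523), rose in 769-P. It read 6.94, 6.74 and 6.40 there with DMSO, 7.41, 7.19 and 7.27 at 6 h, 7.68, 7.73 and 7.55 at 12 h, and 7.67, 7.54 and 7.33 at 24 h. Every drug array lay above every DMSO array, and the rises were 0.60 ± 0.13 (adjusted p = 0.00236), 0.96 ± 0.13 (adjusted p = 1.7e-05) and 0.82 ± 0.13 (adjusted p = 5.6e-05). In Caki-1 it read 6.63, 6.74 and 6.72 with DMSO, 7.03, 7.04 and 7.14 at 6 h, 7.28, 6.89 and 6.74 at 12 h, and 6.84, 6.98 and 6.72 at 24 h. Only the 6 h arrays stood clear of DMSO, and the rise of 0.37 ± 0.12 (adjusted p = 0.0370) was called at that time alone. Without any 1 of the 6 arrays of that comparison its adjusted p ran between 0.0588 and 0.120. At 12 h the change of 0.27 was not called (adjusted p = 0.0832), but without Caki-1 12 h replicate 3 it was 0.39 and called (adjusted p = 0.0227). The second BTC probe set gave 0.12, 0.38 and 0.27 in 769-P, and with it the rises at 6 and 24 h were not called. On GRCh38.p14 EREG lies 56.4 kb from AREG, and AREG 289.8 kb from BTC, so the falling EREG and the rising BTC stand on either side of AREG.

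**Figure D3:**
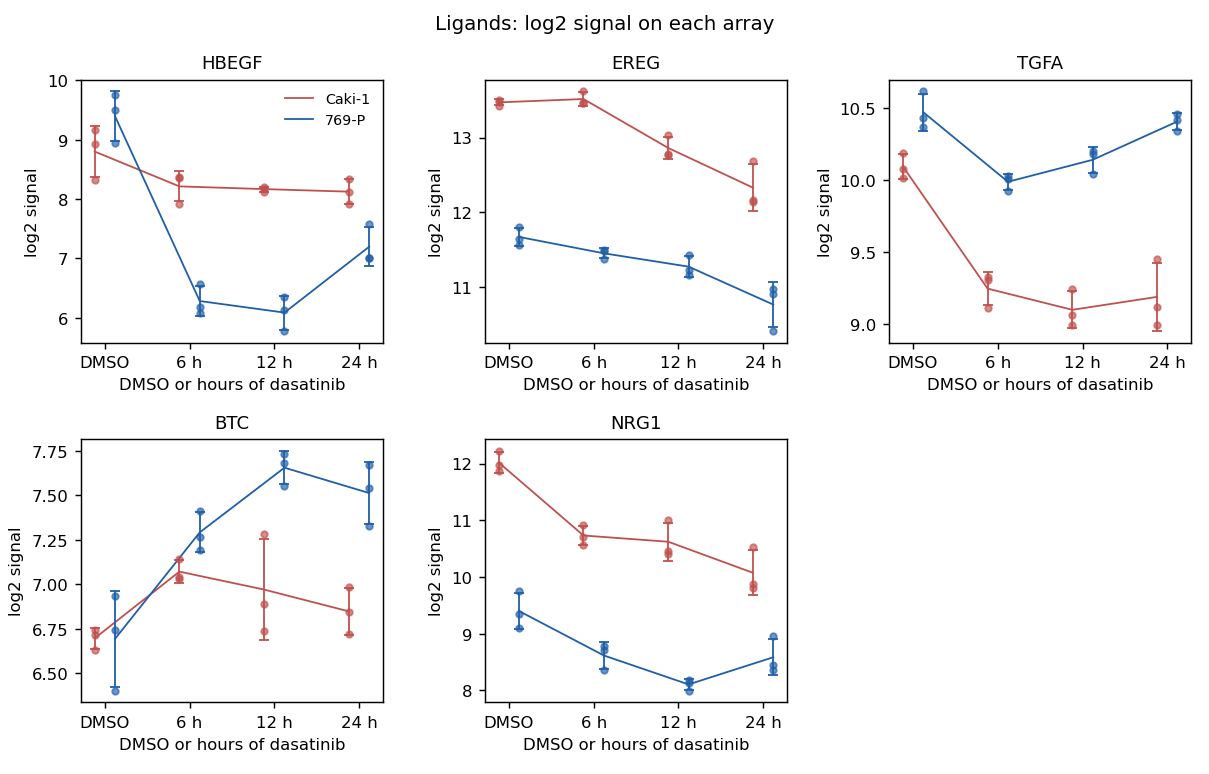
Log2 signal of the 5 measured ligands on each array (points), with the mean and SD of 3 arrays (line and bars), in Caki-1 (red) and 769-P (blue) with DMSO and at 6, 12 and 24 h of dasatinib. HBEGF drops to a group mean of 6.09 at 12 h in 769-P, NRG1 is lower at every time in both lines, and BTC is higher in 769-P; each panel has its own scale.

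ERBB3 was higher and EREG lower at 24 h than at 6 h of dasatinib in both lines. In Caki-1, 2 of 8 members were higher and 2 lower at 24 h than at 6 h, where 28.1% of all genes were higher and 25.6% lower. ERBB3 was higher by 2.46 ± 0.20 and ERBB2 by 0.24 ± 0.10 (adjusted p = 0.0489), and EREG changed by -1.18 and NRG1 by -0.66 (adjusted p = 0.00641). The ERBB2 call was lost without 24 h replicate 1 (0.14, adjusted p = 0.220), 24 h replicate 2 (0.24, adjusted p = 0.0869), 6 h replicate 1 (0.26, adjusted p = 0.0621), 6 h replicate 2 (0.23, adjusted p = 0.109) or 6 h replicate 3 (0.22, adjusted p = 0.110). In 769-P, 4 of 8 members were higher and 1 lower, where 25.8% of all genes were higher and 18.5% lower. ERBB3 was higher at 24 h by 1.44 ± 0.35 (adjusted p = 0.00323), HBEGF by 0.92 ± 0.21 (adjusted p = 0.00211), TGFA by 0.42 ± 0.08 (adjusted p = 3.2e-04) and EGFR by 0.37 ± 0.09 (adjusted p = 0.00413), and EREG changed by -0.68 ± 0.12 (adjusted p = 1.8e-04). HBEGF, TGFA and EGFR thus stood closer to their DMSO level at 24 h than at 6 h in 769-P, and the TGFA and EGFR changes against DMSO at 24 h were not called. With the second brightest probe set the TGFA step turned to -0.23 and was not called (adjusted p = 0.229), and the EGFR step was 0.32 and called (adjusted p = 0.0334). With the mean of all probe sets the steps of EGFR (0.12, adjusted p = 0.172) and TGFA (0.09, adjusted p = 0.334) were not called. That of HBEGF was (0.48, adjusted p = 0.00390). In Caki-1, with the brightest probe set, the same step was -0.09 for HBEGF, -0.06 for TGFA and 0.11 for EGFR, none of them called.

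Without the drug, Caki-1 and 769-P differed most in the ligands NRG1 and EREG. Of 8 members, 3 were higher and 3 lower in Caki-1 than in 769-P with DMSO, and 58.7% of all genes tested differed in either direction. NRG1 was 6.14-fold higher in Caki-1 (2.62 ± 0.19, adjusted p = 1.2e-11), EREG 3.48-fold higher (1.80 ± 0.13, adjusted p = 5.8e-12) and ERBB2 higher by 0.48 ± 0.09 (adjusted p = 3.7e-05). EGFR (-0.51 ± 0.09, adjusted p = 5.6e-05), TGFA (-0.38 ± 0.10, adjusted p = 0.00164) and HBEGF (-0.60 ± 0.21, adjusted p = 0.0186) were lower in Caki-1, with overlapping arrays for HBEGF. The HBEGF difference was not called without 769-P DMSO replicate 1 (-0.42, adjusted p = 0.127), 769-P DMSO replicate 2 (-0.55, adjusted p = 0.0609) or Caki-1 DMSO replicate 1 (-0.36, adjusted p = 0.167). ERBB3 (0.53 ± 0.32, adjusted p = 0.163) and BTC (0.00 ± 0.13) did not pass the test, and without 769-P DMSO replicate 3 the ERBB3 difference was 0.89 and called (adjusted p = 0.0238). With the second brightest probe set the ERBB2 difference turned to -0.035 (adjusted p = 0.813) and that of TGFA to 0.11 (adjusted p = 0.593), neither called. Of EGFR's 8 probe sets, 7 read lower and 1 higher in Caki-1, by unlike amounts. The second brightest gave -1.26, the third -0.55 and the fifth -1.40. The fourth gave -0.05, the sixth -0.12 and the dimmest ones, under the filter, 0.03 and -0.08.

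The response itself was compared between the lines as the log2 change in Caki-1 minus that in 769-P, fitted over all 24 arrays. At 6 h 3 of 8 members differed, where 8.09% of all genes did, at 12 h 5, where 18.9% did, and at 24 h 6, where 36.0% did. ERBB3 changed less far upward in Caki-1 than in 769-P at each time, with a difference of -2.90 ± 0.45 at 6 h (adjusted p = 1.1e-04) and of -1.88 ± 0.45 at 24 h (adjusted p = 0.00217), and HBEGF fell less, with a difference of 2.53 ± 0.30 at 6 h (adjusted p = 2.9e-06) and of 1.52 ± 0.30 at 24 h (adjusted p = 3.2e-04). NRG1 fell further in Caki-1 at 24 h, with a difference of -1.13 ± 0.27 (adjusted p = 0.00191), and TGFA fell further there at 12 h and at 24 h, with differences of -0.66 and -0.84. With the second brightest probe set and 7 members tested, ERBB3 (-0.73, adjusted p = 0.0379) and NRG1 were called at 24 h, and none at 6 or 12 h, where an unadjusted p under 0.05 in limma was reached by 2 members and by 1. Of 10796 genes tested with that set, 617, 1593 and 3303 were called at 6, 12 and 24 h. For EGFR the difference was 0.34 ± 0.13 at 6 h (adjusted p = 0.139), and for EREG it was 0.26 ± 0.18 at 6 h, -0.21 at 12 h and -0.24 at 24 h (adjusted p = 0.315), none of them called. At 24 h the EREG difference was called without Caki-1 24 h replicate 1 (-0.42, adjusted p = 0.0396) or 769-P 24 h replicate 3 (-0.41, adjusted p = 0.0466). It was also called with the mean of all EREG probe sets (-0.66, adjusted p = 0.0128), and not with the second brightest (-0.60, adjusted p = 0.326).

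**Figure D4:**
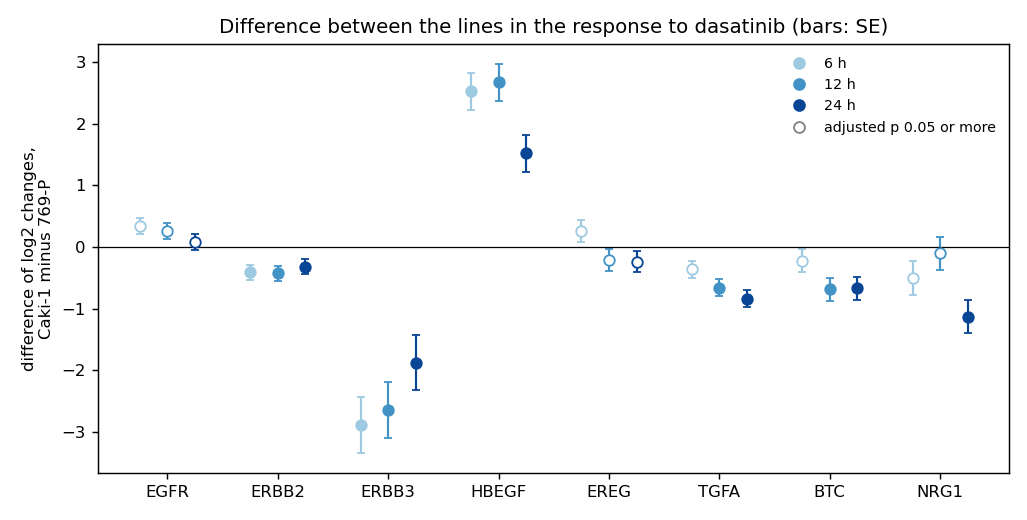
Difference between the lines in the log2 change under dasatinib, Caki-1 minus 769-P, for each tested member at 6, 12 and 24 h (light to dark), with SE bars and open points where the adjusted p was 0.05 or more. HBEGF lies above 0 at each time, up to 2.68, and ERBB3 below it, down to -2.90.

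All probe sets of ERBB2, ERBB3 and BTC read higher and all of HBEGF, TGFA and NRG1 lower in 769-P at each time, while those of EGFR at each time and of EREG at 6 and 12 h differed in sign. Each probe set reads its own stretch of the transcripts, and the changes of all 39 were computed after the data had been seen, with no test. For TGFA in 769-P at 24 h the 4 sets gave -0.06, -0.44, -0.17 and -0.06, and in Caki-1 the dimmest, under the filter, gave 0.05, 0.13 and 0.17 at 6, 12 and 24 h where the brightest fell. For NRG1 in Caki-1 at 6 h 7 of 8 sets read lower, between -1.46 and 0.02.

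**Figure D5:**
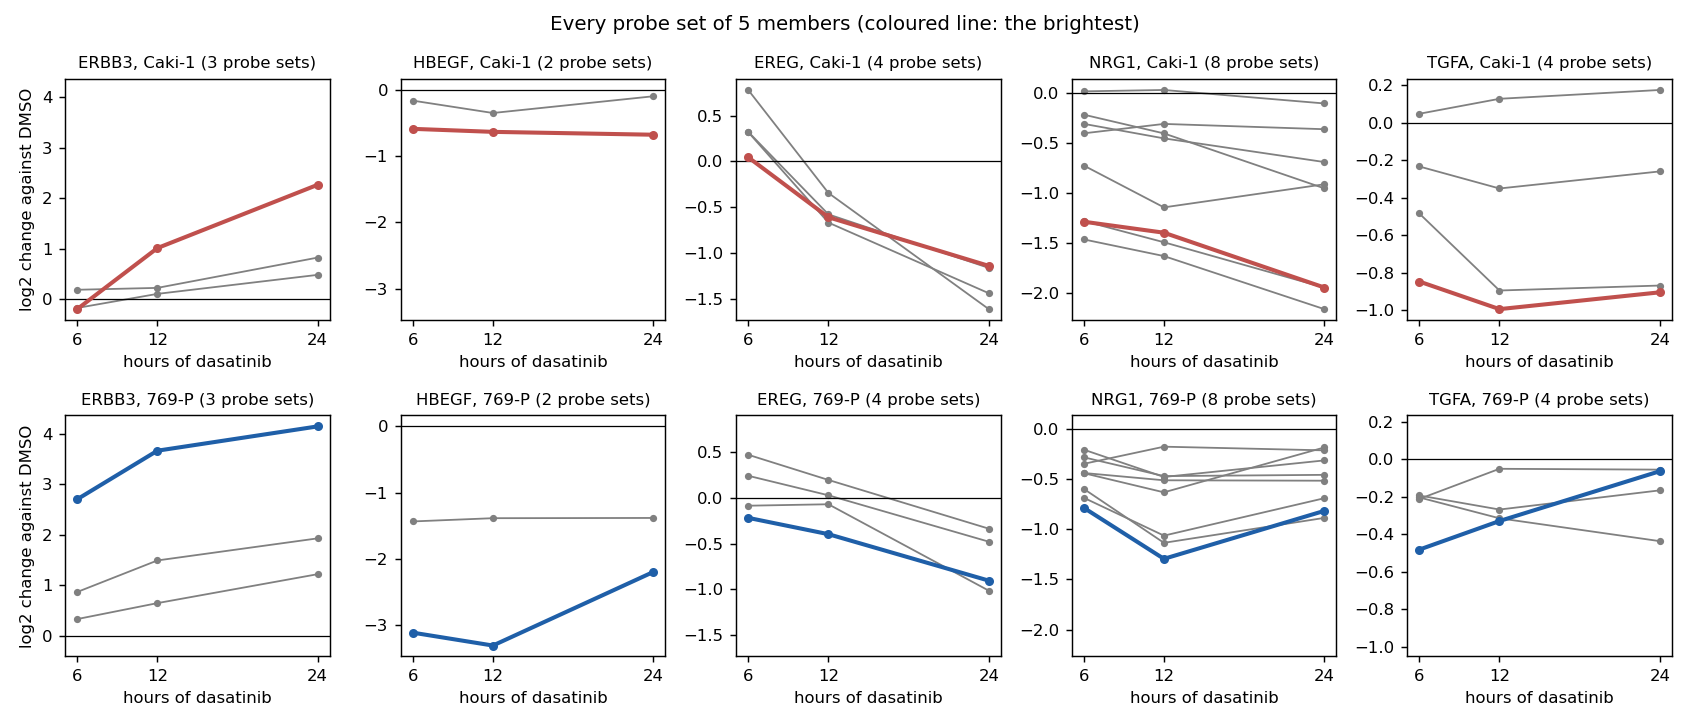
Log2 change against DMSO at 6, 12 and 24 h for every probe set of ERBB3, HBEGF, EREG, NRG1 and TGFA, in Caki-1 (top) and 769-P (bottom); the coloured line is the brightest probe set, grey lines are the others. In 769-P the 3 ERBB3 sets all lie above 0, from 0.33 to 4.14, and both HBEGF sets lie below it.

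Of the other EGF family ligands on the array, EGF, the family's founding member, was alone in passing the filter, and 4 of 5 (EPGN, NRG2, NRG3 and NRG4) lay below it. EGF rose in Caki-1 by 0.66 ± 0.10 at 6 h (adjusted p = 1.5e-04), 0.61 at 12 h and 0.34 ± 0.10 at 24 h (adjusted p = 0.00760), and in 769-P by 0.63 ± 0.12, 1.01 and 1.08 ± 0.12 (adjusted p = 9.2e-07 at 24 h). The rise at 24 h was smaller in Caki-1 than in 769-P, with a difference of -0.74 ± 0.15 (adjusted p = 3.9e-04).

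Genes of ligand shedding, the cutting of the precursors, numbered 9 tested in Caki-1 and 8 in 769-P. In Caki-1 the risers at 6, 12 and 24 h numbered 1, 3 and 6 and the fallers 0, 0 and 1, with a median change at 24 h of 0.26, where that of all genes was 0.08. Of all genes tested there 12.3%, 24.1% and 32.9% rose and 14.0%, 24.4% and 29.9% fell at these times. ADAM17, the main sheddase of several EGFR ligands, rose there by 0.55 ± 0.06 at 24 h, and its partners RHBDF1 and RHBDF2 (iRhom1 and iRhom2) by 0.69 ± 0.09 and 0.43 ± 0.09. In 769-P the risers numbered 0, 1 and 3 and the fallers 3, 2 and 2, with a median of -0.11 at 24 h, where that of all genes was 0.04, beside 16.4%, 24.9% and 31.1% of all genes that rose and 14.5%, 22.6% and 24.6% that fell. RHBDF1 rose by 0.35 ± 0.10 at 24 h in 769-P, and ADAM10, another sheddase, fell by 0.43 ± 0.10 and ADAM15 by 0.28 ± 0.10. At 6 h in 769-P RHBDF1 had fallen by 0.47 ± 0.10. RHBDF2 fell there by 0.66 ± 0.15 at 6 h and 0.71 ± 0.15 at 12 h, and its change of -0.25 at 24 h was not called. ADAM17 rose there by 0.25 ± 0.07 at 12 h and 0.19 ± 0.07 at 24 h.

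Among inhibitors of the receptors and genes of their down-regulation, 14 were tested in each line. In Caki-1 the risers at 6, 12 and 24 h numbered 2, 5 and 4 and the fallers 2, 4 and 3, and in 769-P the risers numbered 3, 5 and 5 and the fallers 2, 5 and 6. Of all genes, 12.3%, 24.1% and 32.9% rose and 14.0%, 24.4% and 29.9% fell in Caki-1, and 16.4%, 24.9% and 31.1% rose and 14.5%, 22.6% and 24.6% fell in 769-P. The median change at 24 h was -0.02 in both lines, where that of all genes was 0.08 in Caki-1 and 0.04 in 769-P. CBLB, a ubiquitin ligase that marks activated receptors for degradation, rose in both lines at 24 h, by 1.00 ± 0.10 in Caki-1 and 0.66 ± 0.14 in 769-P. LRIG1, a membrane protein that restrains the receptors, fell in Caki-1 by 0.77 ± 0.13 at 24 h and rose in 769-P by 1.44 ± 0.15, and the lines differed by -2.20 ± 0.20 (adjusted p = 1.7e-08). With DMSO LRIG1 was higher in Caki-1 by 2.89 ± 0.14. LRIG3 rose by 0.77 ± 0.10 in Caki-1, and SH3KBP1, an adaptor of CBL proteins in receptor uptake, fell by 0.86 ± 0.14 in 769-P.

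Of the adaptors and signal transducers downstream, 22 were tested in each line. At 24 h 10 rose and 6 fell in Caki-1, with a median change of 0.17, and 9 rose and 6 fell in 769-P, with a median of 0.16, where the medians of all genes were 0.08 and 0.04. Of all genes 32.9% rose and 29.9% fell in Caki-1 and 31.1% rose and 24.6% fell in 769-P at 24 h. At 6 h the counts were 3 and 3 in Caki-1 and 4 and 4 in 769-P, and at 12 h they were 7 and 7 in Caki-1 and 7 and 8 in 769-P. The shares of all genes were 12.3% and 14.0% in Caki-1 and 16.4% and 14.5% in 769-P at 6 h, and 24.1% and 24.4% in Caki-1 and 24.9% and 22.6% in 769-P at 12 h. HRAS fell at 24 h in both lines, by 0.94 ± 0.10 in Caki-1 and 0.81 ± 0.12 in 769-P. MAPK3, the gene of the kinase ERK1, rose by 1.18 ± 0.13 and SOS2, an exchange factor for RAS, by 0.93 ± 0.09 in Caki-1. PIK3R3, a regulatory subunit of PI3-kinase, rose by 1.05 ± 0.09 and the adaptor GAB1 by 0.79 ± 0.15 in 769-P.

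Across the 8 group means, the genes most like ERBB3 among 11912 tested in both lines were CD24 (Pearson r = 0.995), SLC25A29 (0.987), NUMB (0.981), SEMA5B (0.978) and CALCOCO1 (0.974). CD24, a surface glycoprotein, had group means of 12.02, 12.05, 12.80 and 13.20 in Caki-1 and 11.87, 13.25, 13.80 and 14.03 in 769-P with DMSO and at 6, 12 and 24 h. The genes most like NRG1 were TMEM158 (0.996), FHOD1 (0.993), PRRC2A (0.992), PDRG1 (0.992) and EXOSC6 (0.987). TMEM158 had group means of 8.56, 7.51, 7.43 and 7.09 in Caki-1 and 6.71, 6.17, 5.94 and 6.11 in 769-P. Among members, NRG1 correlated with EREG at 0.931, and ERBB3 with BTC at 0.806 and with HBEGF at -0.806. The genes share the same arrays and the 8 means fall into 2 lines, so these values are descriptions.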

How the data were processed

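Gene expression was measured on 24 PrimeView arrays of 2 cell lines, 3 in each of 8 groups read from the labels. Each probe set has 1 deposited value on each array, a log2 signal computed by the authors; per the submitters' processing notes the tool was MAS5, with no version or setting, and PrimeView has perfect-match probes only, so how it was applied is not given in the sources used here. They ran from 2.804 to 15.19. Of 49395 probe sets, 102 controls were left out, 44988 named 1 gene by the platform annotation (symbols updated by Entrez identifier), 1832 several and 2473 had no entry. Raw intensities were not used here.

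Changes were tested with limma 3.58.1 in R 4.3.3 (moderated t, intensity trend, group-means design; input through the data.table package, 1.17.8), two-sided, with Benjamini-Hochberg adjustment over all genes of a comparison and a threshold of 0.05. Comparisons within a line used its 12 arrays (8 residual degrees of freedom), those between lines all 24 (16). The code was tested on simulated data. Beside the members, the text names up to 3 called genes of each pathway list with the largest change at 24 h in each line, and the 5 genes most like the ligand and the receptor of widest range. Their values at other times, in the other line or between the lines were added after the data had been seen. Members and lists were chosen with earlier results of these data known. Promoter sequences and gene places are RefSeq's on GRCh38.p14, and places were read for all 10 members. Promoters of 8 of the 10 members were searched. ERBB3 had no entry, and chromosome 8, where NRG1 lies, was left out of the member search.

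Whether replicate numbers pair arrays was checked on deviations from the group mean, correlated between arrays of the same number. All correlations exceeded 0.1 for 769-P at 6 h (0.362, 0.111 and 0.293), at 24 h (0.170, 0.122 and 0.123) and for 24 h against 6 h (0.191, 0.174 and 0.102), and not in the other comparisons. Alternatives were another scaling, filter, probe set or variance model, only the groups compared, the replicate block, and leaving out each array.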

Additional observations from a re-analysis of the deposited data

Results flagged for a closer look

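The change under dasatinib differed between the lines, by an interaction term in limma over all 24 arrays (Caki-1 change minus 769-P change, adjusted over all genes), for 6 members. Groups of 3 arrays are too small for a check of single arrays that stand apart.

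ERBB3 differed by -2.90 ± 0.45 at 6 h (adjusted p = 1.1e-04), -2.65 ± 0.45 at 12 h (adjusted p = 1.3e-04) and -1.88 ± 0.45 at 24 h (adjusted p = 0.00217), a smaller rise in Caki-1 at 12 and 24 h and no called rise there at 6 h. HBEGF differed by 2.53 ± 0.30 at 6 h, 2.68 ± 0.30 at 12 h (adjusted p = 5.7e-07) and 1.52 ± 0.30 at 24 h, a smaller fall in Caki-1. ERBB2 differed by -0.41 ± 0.12 at 6 h (adjusted p = 0.0377), -0.43 ± 0.12 at 12 h (adjusted p = 0.0155) and -0.32 ± 0.12 at 24 h (adjusted p = 0.0460), with a rise called in 769-P alone.

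TGFA differed by -0.66 ± 0.14 at 12 h (adjusted p = 9.6e-04) and -0.84 ± 0.14 at 24 h (adjusted p = 3.7e-05), lower in Caki-1. BTC differed by -0.69 ± 0.19 at 12 h (adjusted p = 0.0101) and -0.67 ± 0.19 at 24 h (adjusted p = 0.00685), a smaller change in Caki-1, where neither was called. NRG1 differed by -1.13 ± 0.27 at 24 h (adjusted p = 0.00191), a larger fall in Caki-1. With the second brightest probe set ERBB3 (-0.73) and NRG1 (-1.28) were still called at 24 h. With that set the ERBB3 difference was not called at 6 h (-0.50) or 12 h (-0.54). Neither were those of TGFA (-0.58 and -0.43) and BTC (-0.22 and -0.23) at 12 and 24 h.

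The ERBB2 difference depended on single arrays and on the probe set; with the second brightest it was 0.047 at 6 h, -0.022 at 12 h and 0.10 at 24 h, none of them called. At 6 h it was not called without Caki-1 DMSO replicate 1 or 2, Caki-1 6 h replicate 2 or 3, 769-P DMSO replicate 1 or 769-P 6 h replicate 1 (values of -0.36 to -0.42, adjusted p of 0.0705 to 0.0995). At 24 h it was not called without any 1 of 9 of the 12 arrays it rests on (values of -0.23 to -0.34, adjusted p of 0.0562 to 0.155); it stayed called only without Caki-1 DMSO replicate 3, Caki-1 24 h replicate 1 or 769-P DMSO replicate 2.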

How the results depend on the processing

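Every alternative that gave a value left the NRG1 change against DMSO called in the same direction at each time in both lines. The same held for HBEGF at each time in 769-P and at 24 h in Caki-1. It held for ERBB3 at 24 h in Caki-1 and at 12 and 24 h in 769-P, and for EREG at 24 h in both lines. TGFA in Caki-1 at 12 and 24 h and BTC in 769-P at 12 h also stayed called in every alternative. Over all alternatives, the values of tested members stayed on their side of the threshold in 1466 cases (32 of these, none of them called, turned sign), lost the call in 88 and gained it in 13, and a called value turned sign in 5. The choice of probe set changed most. With the mean of all probe sets, the members called numbered 2 for 24 h against 6 h in Caki-1 (4 with the brightest), 3 for that in 769-P (5) and 3 for the difference between the lines at 12 h (5). With that mean 6138 of 11082 genes were called for 24 h against 6 h in Caki-1 and 4849 of 11008 in 769-P. For the difference in response at 12 h, 2090 of 11570 genes were called. With the second brightest probe set and 7 members tested (HBEGF's lies under the filter), the members called numbered 1 in Caki-1 at 6 h (4) and 2 at 12 h (5). In 769-P they numbered 2 at 6 h (7), 3 at 12 h (7) and 3 for 24 h against 6 h (5). Between the lines with DMSO they numbered 3 (6). For the difference in response they were 0 at 6 h (3), 0 at 12 h (5) and 2 at 24 h (6). In limma at an unadjusted p under 0.05 those at 6 h were 2 and those at 12 h 1. Of all genes with that probe set, 2180 of 10294 were called in Caki-1 at 6 h and 4532 at 12 h. In 769-P 2523 of 10268 were called at 6 h, 4298 at 12 h and 3988 for 24 h against 6 h. Of 10796 genes, 5879 were called between the lines with DMSO, and 617, 1593 and 3303 for the difference in response at 6, 12 and 24 h. The 5 called values that turned sign did so with that probe set: TGFA in 769-P for 24 h against 6 h was -0.23 (0.42 with the brightest), ERBB2's difference in response 0.047 at 6 h (-0.41) and 0.10 at 24 h (-0.32), and between the lines with DMSO ERBB2 was -0.035 (0.48) and TGFA 0.11 (-0.38). The cause was not tested. With the replicate block, 6 members differed in response at 6 h (3 without it), and 7 between the lines with DMSO (6), where ERBB3's 0.53 was called. Of 12864 genes, 1381 differed in response at 6 h with the block (1041 without it), and 7789 between the lines with DMSO (7550). The block changed no member's call in the paired 769-P comparisons. Leaving out 1 array gave 2 to 3 called members in Caki-1 at 6 h (4 with all arrays), where 2385 to 3153 of 12423 genes were called (3273). ERBB4 lay under the filter in both lines, and its low signal limits what can be read from it.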
